A study of Homo sapiens with 4 samples.

Results

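The genes described here were TRIB2, TRIB1, RFWD2 and CEBPA, 4 of the 18917 genes in a table of RNA-seq counts. The libraries came from HEK-293T, a transformed line grown from human embryonic kidney, with THUMPD1 intact (WT) or knocked out (KO). The 4 genes were picked by symbol, because TRIB2 was among the largest rises in KO over WT cells and the other three belong to the same pathway. The difference between KO and WT that chose TRIB2 is therefore given as a description of all 4 genes. No p-value is given for them, and where a call of the fit is mentioned, nothing is supported with it. The series held 2 WT and 2 THUMPD1 KO libraries of total RNA depleted of ribosomal RNA, with the line labelled HEK293 and grown in DMEM with 10% serum and 2 mM glutamine. The KO cells were made with CRISPR-Cas9 guides against the coding sequence of THUMPD1, the adapter that NAT10 needs to acetylate tRNA, and came from single-cell sorting, so genotype and clone cannot be told apart. WT is the name the methods give the unedited parent line, and whether the WT cells went through the same sorting is not given in the sources used here. Nothing in the labels says that the 2 libraries of a genotype came from separate cultures, so the p-values measure the spread between these libraries, which may be technical.

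Tribbles proteins are pseudokinases: they keep the fold of a protein kinase but bind partners instead of working mainly as enzymes. The C-terminal tail of TRIB1 and TRIB2 holds the E3 ubiquitin ligase COP1, whose older symbol RFWD2 is the one in the count table, while the pseudokinase domain holds the substrate, so that the substrate is ubiquitinated and degraded. The best known substrate is C/EBP alpha, the product of CEBPA, a transcription factor of myeloid cells, liver and fat, and an excess of TRIB2 or TRIB1 drives acute myeloid leukaemia in mice by removing it. TRIB3, the third member of the family, is a target of ATF4 and is better known for binding AKT.

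To show the DNA from which the 2 members with the higher KO values are transcribed, the windows from 250 bases before to 50 bases after the RefSeq start sites of TRIB2 (chr2:12716686-12716985, plus strand) and COP1 (chr1:176207237-176207536, minus strand) on GRCh38.p14 are given 5′ to 3′ on the strand of the gene. Of the 4 members, 3 had such a window in the RefSeq table. Capitals mark matches on either strand to a GC box bound by Sp1 (GGGCGG) or to the forkhead element bound by FOXO factors (GTAAACA), and neighbouring matches run into each other.
TRIB2: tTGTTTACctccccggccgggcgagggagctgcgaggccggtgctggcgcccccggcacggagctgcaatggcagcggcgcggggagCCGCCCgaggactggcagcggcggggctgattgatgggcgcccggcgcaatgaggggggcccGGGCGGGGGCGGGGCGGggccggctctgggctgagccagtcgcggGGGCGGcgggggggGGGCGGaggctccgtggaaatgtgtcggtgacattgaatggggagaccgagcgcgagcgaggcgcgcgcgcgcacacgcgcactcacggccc
COP1: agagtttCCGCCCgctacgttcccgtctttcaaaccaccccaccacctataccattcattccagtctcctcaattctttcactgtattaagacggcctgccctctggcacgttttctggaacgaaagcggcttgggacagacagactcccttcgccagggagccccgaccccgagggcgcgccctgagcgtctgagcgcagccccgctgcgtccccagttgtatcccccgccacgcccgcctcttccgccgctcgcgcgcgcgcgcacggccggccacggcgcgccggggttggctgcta

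The TRIB2 window held 6 GC boxes and 1 forkhead element, the latter at its upstream end, while the COP1 window held 1 GC box and 0 forkhead elements. Of 35116 windows of this length, 45.0% held a GC box and 3.42% a forkhead element. The GC content was 77.3% for TRIB2 and 65.7% for COP1, against a median of 58.7%, and 94.1% of all windows had a lower GC content than that of TRIB2. Also searched on both strands were E2F (TTTCCCGC or TTTGGCGC), ETS (CCGGAAGT), TCF and LEF (CTTTGAT), C/EBP (TTGCNNAA) and the composite C/EBP-ATF element (TGATGNAA), and these had 0 matches in either window. They were found in 2.27%, 4.14%, 2.62%, 10.5% and 3.62% of all windows in that order.

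Total counts were between 7875722 and 11362363 per library. A gene was tested where at least 2 libraries reached 1 CPM (the count scaled to the size of the library), and 13128 genes were, all 4 members among them. THUMPD1, the targeted gene, was lower in the KO libraries, as labelled, and was at 46.4 and 42.5 CPM in the WT and 6.13 and 5.44 CPM in the KO libraries. Its log2 fold change was -2.93 (standard error 0.17, adjusted p = 1.26e-12, edgeR quasi-likelihood test, Benjamini-Hochberg adjustment). Of 10 markers of embryonic kidney, 8 were tested, with SIX2, SALL1, GATA3 and EYA1 at 12.7 to 84.5 CPM on average in WT cells, and PAX8 and OSR1 below the filter. LHX1 was the only one of the 8 to pass the test, with a mean of 0.664 CPM in WT against 2.86 CPM for KO, and it passed the filter on low values through the KO libraries alone. Markers of the cells in which CEBPA is best known were mostly near 0. The summed level of 5 hepatocyte markers ran from 0 to 0.777 CPM and that of 5 fat cell markers from 0.75 to 1.3 CPM over the libraries. The 7 myeloid markers summed to between 13.7 and 16.5 CPM, nearly all of it from CSF1R and SPI1, with LYZ, MPO and CD14 at 0 or 1 count in each WT library. Behind this level sum, SPI1 averaged 5.01 CPM in WT and 2.38 CPM in KO, and CSF1R 9.40 and 13.4 CPM. Neither was called. The genotypes did not overlap for either gene, which is common here. Both KO libraries lay above both WT libraries for 30.4% of all tested genes and below them for 30.0%.

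TRIB2 was at 4.95 CPM in WT replicate 1, 3.55 CPM in WT replicate 2, 15.4 CPM in KO replicate 1 and 14.4 CPM in KO replicate 2. Both KO libraries lay well above both WT libraries, and the genotypes differed by far more than the replicates of either. The counts behind these levels were 38 and 39 in WT and 178 and 154 in KO. The 95% Poisson intervals were 3.50 to 6.80 and 2.52 to 4.85 CPM in WT and 13.2 to 17.8 and 12.3 to 16.9 CPM in KO, which describe counting error alone, as no source used here names molecular identifiers. In RNA from bulk cells, more cells expressing a gene and more RNA per cell cannot be told apart. The mean level was 4.25 ± 0.994 CPM in WT against 14.9 ± 0.646 CPM with the KO (SD, n = 2 each), and the log2 fold change was 1.84 (standard error 0.25), or 3.57-fold. With few WT counts, the 2 WT libraries set much of that value. Without WT replicate 1 it was 2.07 and without WT replicate 2 it was 1.59.

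Among the 11112 genes that averaged 5 CPM or more over all libraries, 4 had a higher log2 fold change than TRIB2. With 4.25 CPM on average in WT, TRIB2 reached that cut only through its KO libraries, so this rank is a description. Just above it stood DPYSL3, a microtubule-associated protein of neurons, at 1.87, and just below it DNAH6, an axonemal dynein, at 1.71. Over all tested genes, including those at low levels where fold changes spread widely, 64 lay above TRIB2. TRIB2 (ENSG00000071575.12) lies on chromosome 2 of GRCh38, from 12716910 to 12742734 on the plus strand, with 3 exons in its canonical transcript in GENCODE 44.

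RFWD2 encodes COP1, the RING-type ligase that Tribbles proteins bring to their substrates. Its level was 54.6 and 45.5 CPM in the WT libraries and 66.8 and 67.6 CPM in the KO libraries. Both KO values exceeded both WT values, and the WT replicates stood further apart than the KO replicates. WT averaged 50.1 ± 6.40 CPM against 67.2 ± 0.596 CPM for KO (SD, n = 2 each), a log2 fold change of 0.43 (standard error 0.10), or 1.35-fold. A higher log2 fold change was seen for 1408 of the tested genes. Without WT replicate 2 the value was 0.30 and RFWD2 was not among the calls of that fit, and without WT replicate 1 it was 0.56. RFWD2 was matched to COP1 (ENSG00000143207.21) through its RefSeq synonym, on chromosome 1 from 175944831 to 176207286 on the minus strand, with 20 exons.

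TRIB1, which like TRIB2 brings C/EBP alpha to COP1, was at 26.6 and 29.8 CPM in WT and at 25.5 and 27.8 CPM in KO libraries. The 2 genotypes overlapped. WT averaged 28.2 ± 2.29 CPM against 26.6 ± 1.63 CPM for KO (SD, n = 2 each), and the log2 fold change of -0.09 (standard error 0.14) was smaller than its error. TRIB1 (ENSG00000173334.4) lies on chromosome 8 from 125430358 to 125438403 on the plus strand, with 3 exons.

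CEBPA, the gene of the substrate, was at 10.8 and 16.5 CPM in WT and at 12.2 and 12.1 CPM in KO libraries. The 2 WT libraries lay on either side of the KO libraries, which hardly differed from each other. WT averaged 13.7 ± 4.05 CPM against 12.1 ± 0.047 CPM for KO (SD, n = 2 each). The log2 fold change of -0.19 (standard error 0.21) had no settled direction, being -0.45 without WT replicate 1 and 0.17 without WT replicate 2. RNA levels do not show the amount of C/EBP alpha protein, which is what Tribbles and COP1 act on. CEBPA (ENSG00000245848.3) is a gene of 1 exon on chromosome 19, from 33299934 to 33302534 on the minus strand.

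Of the 4 members, 2 (TRIB2 and RFWD2) were called higher in KO at an adjusted p under 0.05 and 0 were called lower. Of all tested genes 20.9% were called, 8.79% higher and 12.1% lower. The same 2 members had both KO libraries above both WT libraries, as did 30.4% of all tested genes. Since the members were chosen with this contrast in view, nothing is read from these counts. None of the 4 lies on chromosome 16 or 22, where the tested genes had medians of -0.44 and -0.42 in log2 fold change. The medians were 0.04 on chromosome 2, 0.02 on chromosome 1, 0.05 on chromosome 8 and -0.05 on chromosome 19.

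**Figure D1:**
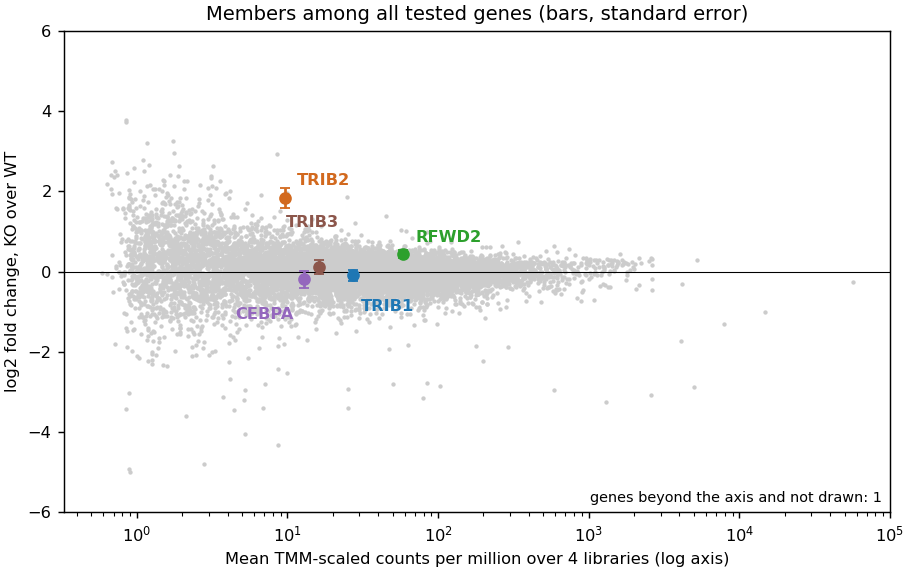
Log2 fold change of KO over WT against the mean level (TMM-scaled CPM, log axis) for the tested genes, in grey, with the 4 members and TRIB3 in colour and bars for their standard error. TRIB2, at 1.84, stands above most genes at its level. RFWD2 lies in the upper part of the cloud, with 89.3% of tested genes lower, and TRIB1, TRIB3 and CEBPA lie within it. Not drawn is 1 gene beyond the axis.

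Set per kilobase of the longest GENCODE 44 transcript, the order in WT cells was RFWD2, TRIB1, CEBPA, TRIB2. Which transcripts the cells expressed was not examined, so comparisons between genes rest on these lengths. RFWD2 was at 17.7 ± 2.26 CPM per kilobase, TRIB1 at 7.84 ± 0.637, CEBPA at 5.26 ± 1.56 and TRIB2 at 0.978 ± 0.229 (SD, n = 2). In KO cells the order was the same, with 23.8 ± 0.211, 7.40 ± 0.454, 4.67 ± 0.0181 and 3.43 ± 0.149 CPM per kilobase. Every pair of neighbours in these orders was separated by more than the SD of either. TRIB3, which is no member, fell between TRIB1 and CEBPA, at 6.56 ± 0.109 in WT and 7.13 ± 0.173 in KO cells. It differed by less than an SD from CEBPA in WT and from TRIB1 in KO cells. By this measure TRIB2 was the least abundant of the Tribbles transcripts in WT cells, and it was still so in KO cells.

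Ratios within a library do not depend on how libraries are scaled. TRIB2 made up 10.5% of the summed TRIB1, TRIB2 and TRIB3 counts in WT replicate 1 (95% Wilson interval 7.74 to 14.1) and 7.29% in WT replicate 2 (5.38 to 9.81). It made up 26.5% in KO replicate 1 (23.3 to 30.0) and 24.6% in KO replicate 2 (21.4 to 28.1). These intervals cover counting error alone, and since TRIB2 was chosen for its rise, its shares are a description. Per kilobase of transcript the shares were smaller, 7.51% and 5.23% in WT and 19.8% and 18.4% in KO. The ratio of TRIB2 to TRIB1 counts was 0.186 and 0.119 in WT and 0.603 and 0.52 in KO libraries. The summed CPM of TRIB1 and TRIB2, the 2 family members that act on C/EBP alpha, was 31.5 and 33.4 in WT and 40.8 and 42.2 in KO libraries. The sum of all 3 Tribbles genes was 47.2 and 48.6 CPM in WT and 57.9 and 58.7 CPM in KO libraries. Both sums contain TRIB2 and so carry the rise for which it was chosen. Unlike the ratios, they depend on the scaling between libraries. The ratio of RFWD2 to CEBPA counts was 5.05 and 2.75 in WT and 5.49 and 5.59 in KO libraries, with WT replicate 2 apart from the other three.

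The relatives of the members were examined with lists of other pathway genes. TRIB3 was at 15.6 and 15.3 CPM in WT and 17.1 and 16.5 CPM in KO libraries, and its log2 fold change was 0.12 (standard error 0.17). STK40, a pseudokinase close to the Tribbles that also binds COP1, had means of 106 ± 3.67 and 112 ± 5.21 CPM (SD, n = 2 each) and a log2 fold change of 0.07 (standard error 0.08). Neither passed the test. Over 11 lists, 89 of 98 genes could be tested, of which 10 were called higher and 10 lower, or 22.5%, near the 20.9% of all tested genes. Their median log2 fold change was 0.05, against 0.01 over all tested genes.

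COP1 works with DET1, DDB1 and a CUL4 scaffold. Of these 6 ligase genes CUL4B rose, from 114 ± 1.24 to 137 ± 8.82 CPM (SD, n = 2 each), and RBX1, the RING subunit that recruits the E2 enzyme, fell, from 83.1 and 89.4 CPM to 62.7 and 67.3 CPM. Their log2 fold changes were 0.27 and -0.41 (adjusted p = 0.0105 and 0.00148 by edgeR), and that of CUL4B was 0.21 and no longer called without KO replicate 1. RBX1 lies on chromosome 22, and the part of that chromosome's lower median in its value was not tested. DDB1, DDA1 and CUL4A, the adaptor, a small DDB1 partner and the other scaffold, were not called, at 0.15, -0.05 and -0.12. DET1 stood at 0.38 (adjusted p = 0.0743 from edgeR). DDB1 was called higher in some alternatives, among them limma-voom (0.20). The COP9 signalosome, which removes NEDD8 from cullins, had 1 of 9 genes called. COPS6 rose by a log2 fold change of 0.23 (adjusted p = 0.0134 from edgeR), but lost its call without WT replicate 2 (0.17) or KO replicate 2 (0.20). GPS1, COPS3 and COPS8, other subunits, were at 0.18, 0.09 and -0.04, and GPS1 was called higher with library size alone (0.26). The medians were 0.05 for the ligase and 0.09 for the signalosome.

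Among 11 genes for proteins that COP1 or Tribbles degrade, 9 could be tested, of which 0 were called higher and 1 lower. JUN, a COP1 substrate and a subunit of AP-1, averaged 286 ± 11.4 CPM in WT against 269 ± 15.9 CPM for KO (SD, n = 2 each), with overlap between the genotypes, and was not called. MTA1 and ACACA were not called either, at 0.07 and -0.17. Of the ETS factors by which COP1 is known in prostate, ETV4 and ETV5 had at most 15 counts in any library and were not tested. ETV1, another ETS factor of the list, was tested and not called, at 0.01 (standard error 0.56). It had 20 and 14 counts in WT and 21 and 21 in KO libraries. The median of the 9 genes was -0.09.

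Of the 6 other genes in the C/EBP list, 5 were tested and 1 was called. CEBPG, which dimerises with other bZIP proteins and whose gene neighbours CEBPA, rose from 48.9 ± 3.07 to 61.1 ± 2.43 CPM (SD, n = 2 each). Its log2 fold change was 0.33 (adjusted p = 0.0224 from edgeR). It was not called with DESeq2 (0.32), without WT replicate 2 (0.26) or without KO replicate 1 (0.29). CEBPB, CEBPZ and DDIT3 were not called, at -0.34, 0.04 and -0.19. Of 9 genes known as partners or targets of C/EBP alpha, 8 were tested. CDKN1A, the p21 inhibitor of cyclin-dependent kinases that C/EBP alpha stabilises, rose from 20.7 and 22.8 CPM to 32.3 and 42.5 CPM, with a log2 fold change of 0.77 (adjusted p = 0.000397 from edgeR). MYC, which C/EBP alpha represses, fell from 202 ± 12.1 to 176 ± 0.711 CPM (SD, n = 2 each), with a log2 fold change of -0.20 (adjusted p = 0.035 from edgeR). It lost its call in 7 of 11 alternatives, among them the fits without WT replicate 2 (-0.13), KO replicate 1 (-0.19) and KO replicate 2 (-0.20). CDK2, CDK4 and PPARG were not called, at -0.08, 0.07 and 0.25. SPI1, at -1.08 with few counts, was not called (adjusted p = 0.0549 from edgeR). It was called lower in some alternatives, among them limma-voom (-1.16).

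Tribbles proteins also bind kinases upstream of ERK and JNK and, as reported for TRIB2 and TRIB3, act on AKT and FOXO factors. Of 12 such genes 3 were called higher and 3 lower. MAPK3 (ERK1) fell most, from 126 and 141 CPM to 89.1 and 92.8 CPM, with a log2 fold change of -0.56 (adjusted p = 1.14e-05 from edgeR). MAP2K7, a kinase of the JNK pathway, fell by 0.34 on the log2 scale (adjusted p = 0.00504 from edgeR). MAPK3 lies on chromosome 16, and the part of that chromosome's lower median in its value was not tested. MAP2K4, another JNK pathway kinase, and FOXO3 rose, with log2 fold changes of 0.32 and 0.28 (adjusted p = 0.0347 and 0.0175 from edgeR). MAP2K4 lost its call with DESeq2 and with any 1 of the 4 libraries left out (0.29 to 0.36). FOXO3 lost its call with DESeq2 and without WT replicate 2 (0.20), KO replicate 1 (0.28) or KO replicate 2 (0.27). AKT2, AKT1 and MAP2K2, the most abundant of those not called, were at -0.08, -0.05 and 0.05.

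Genes that report ERK output were low in these cells, and 6 of 10 could be tested. CCND1, cyclin D1, fell from 34.8 ± 0.292 to 24.2 ± 0.349 CPM (SD, n = 2 each), with a log2 fold change of -0.52 (adjusted p = 0.00523 from edgeR). EPHA4, SPRY2 and EPHA2 were not called, at 0.33, 0.12 and 0.18. DUSP4, with 2 and 18 counts in WT and 21 and 34 in KO libraries, was at 1.27 (standard error 0.64) and not called. Without WT replicate 2 it was at 3.19, and both it and EPHA4 (0.44) were then called, as EPHA4 (0.49) was without KO replicate 2.

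Of 14 FOXO targets 13 were tested, 2 called higher and 2 lower, or 30.8%, against 20.9% of all tested genes. Their median was 0.14. SESN3, a sestrin that restrains mTORC1, rose from 53.4 and 57.0 CPM to 78.8 CPM in each KO library, with a log2 fold change of 0.51 (adjusted p = 0.000241 from edgeR). INSR, the insulin receptor, rose from 68.5 and 72.0 CPM to 95.5 and 98.4 CPM, with a log2 fold change of 0.46 (adjusted p = 0.00026 from edgeR). BBC3, the proapoptotic PUMA, and GADD45A, a stress-induced growth arrest gene, fell by 0.44 and 0.34 on the log2 scale (adjusted p = 0.0493 and 0.0457 from edgeR). BBC3 lost its call in 10 of 11 alternatives, which ran from -0.48 to -0.36, and with any 1 library left out. GADD45A lost its call in 6, including the fits without WT replicate 1 (-0.21) and without KO replicate 1 (-0.15). BCL2L11, CDKN1B and CITED2, at 0.14, 0.23 and -0.18, were not called.

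Regulators of TRIB2 itself were mostly level. Of 11 genes tested, E2F1, a cell cycle factor reported at the TRIB2 promoter, was the only one called. It rose from 67.0 and 79.4 CPM to 103 and 98.2 CPM, with a log2 fold change of 0.45 (adjusted p = 0.000635 from edgeR). MEIS1, the homeobox factor that drives TRIB2 in leukaemia, averaged 29.5 ± 4.39 CPM in WT against 29.4 ± 4.59 CPM for KO (SD, n = 2 each), and its log2 fold change rounded to 0. CTNNB1, the β-catenin through which Wnt signals reach TRIB2 in liver cancer, CUL1 and TCF7L2 were at 0.00, 0.05 and 0.04. Of 8 Wnt targets tested, ZNRF3, a membrane ligase that removes Wnt receptors, fell from 88.9 ± 2.89 to 59.7 ± 2.65 CPM (SD, n = 2 each). Its log2 fold change was -0.58 (adjusted p = 3.65e-05 from edgeR), and it lies on chromosome 22. LEF1, TCF7 and RNF43 were not called, at -0.10, 0.26 and -0.38, and the median was -0.15. RNF43 was called without WT replicate 2 (-0.61), and NKD1, at -0.45, without WT replicate 1 (-0.58).

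Around TRIB2 on chromosome 2, the nearest tested genes were far off, LPIN1 at 890 kb on one side and NBAS at 2420 kb on the other. Of 6 neighbours, 0 were called higher and DDX1, an RNA helicase, was lower at -0.23 (adjusted p = 0.0355 from edgeR), and their median was -0.02. The 6 neighbours of RFWD2 had a median of -0.02. TNR, a matrix glycoprotein of neurons 201 kb away, was the only one called, with 5 and 11 WT counts against 39 and 29 KO counts, and it too passed the filter through the KO libraries alone. PAPPA2, 256 kb away on the other side, was at 1.24 (standard error 0.65) and not called. With 5 and 10 WT counts against 20 and 22 KO counts, PAPPA2 also passed the filter through the KO libraries alone. Of the 6 neighbours of CEBPA, CEBPG was the only one called, and the median was -0.03. Of the 6 neighbours of TRIB1, 3 were called lower, against 12.1% of all tested genes, and the median was -0.11. These were SQLE at -0.25 (adjusted p = 0.0183 from edgeR), MYC, given above, and FAM84B. Whether they share a cause was not tested. FAM84B, 1110 kb away, was the largest of these changes, from 78.7 and 70.7 CPM to 20.9 and 18.1 CPM, with a log2 fold change of -1.93 (adjusted p = 6.79e-12 from edgeR). NSMCE2, at 63.2 kb the nearest to TRIB1, was at 0.04.

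The genes most like TRIB2 across the 4 libraries were found by the Euclidean distance between log2 CPM, each centred on its own mean, over 11110 other genes averaging 5 CPM or more and above 0 in every library. With 4 libraries of 2 genotypes, such likeness is mainly a like difference between KO and WT. The nearest were ZNF804A (distance 0.38), a zinc finger gene; SYT14 (0.42), a synaptotagmin; SNAI2 (0.46), the transcription factor SLUG; DNAH6 (0.57); and PGAM2 (0.62), the muscle form of phosphoglycerate mutase. Their log2 fold changes ran from 1.34 to 1.71. Like TRIB2, all of them but SNAI2 averaged under 5 CPM in WT and reached that cut through the KO libraries. SNAI2 was the most abundant of the 5, with 215 and 242 counts in WT against 740 and 708 counts for KO. The median distance from TRIB2 was 1.87, and the other members lay at 1.41 (RFWD2), 1.97 (TRIB1) and 2.12 (CEBPA).

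Because THUMPD1 acts on tRNAs for leucine and serine, the leucine codons of the members were counted in the canonical coding sequences of GENCODE 44. The A/U-rich leucine codons (those ending in A or U, and UUG) made up 8 of 34 leucine codons in TRIB2 (23.5%), 12 of 36 in TRIB1 (33.3%), 41 of 63 in RFWD2 (65.1%) and 1 of 28 in CEBPA (3.57%). Over 12936 tested genes the median was 40.9%, with quartiles at 22.7% and 61.3%. RFWD2 thus lay above the upper quartile and CEBPA near the bottom. TRIB2 and TRIB1 were below the median. TRIB2 and RFWD2, the 2 members with higher RNA in KO cells, stood on opposite sides of it. These values describe the sequences; translation was not measured in these libraries.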

How the data were processed

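RNA was measured in 2 WT and 2 THUMPD1 KO libraries, with genotype and replicate number taken from the sample titles. The file the authors deposited gives unnormalized counts for each gene symbol. The submitters' processing notes name the build hg19, while the paper's RNA-seq methods describe alignment to GRCh38 and GENCODE 46 by STAR, then RSEM, another kit and 3 samples per genotype. Which of these made the counts, and whether strand was used, is not given in the sources used here, so reads of overlapping genes could not be told apart. The authors' own comparison of KO with WT was not used.

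Counts were analysed with edgeR 4.0.16 (glmQLFit, glmQLFTest, TMM) in R 4.3.3, keeping genes that reached 1 CPM in 2 or more libraries. P-values were adjusted over 13128 genes by Benjamini-Hochberg, with a threshold of 0.05. CPM used TMM-scaled library sizes, and a count of 3 was worth 0.259 to 0.391 CPM. The fit was tested on simulated data. limma 3.58.1 and DESeq2 1.42.0 served as alternatives. Genes were placed on GRCh38 by symbol or RefSeq synonym; lengths and codons are those of GENCODE 44, not of the authors' annotation. Python 3.11.15 with pandas 2.3.3 was used for tables.

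The members, lists and alternatives were chosen with earlier results of these data known. Genes named were the members, THUMPD1, called list genes, up to 3 abundant uncalled genes per list, the 3 nearest tested genes on each side of a member (those described being the nearest and the called ones, with PAPPA2) and the 5 most like TRIB2. DPYSL3, DET1, DUSP4, NKD1, MEIS1, SPI1, ETV1, ETV4 and ETV5 were named outside this rule, after their values were seen. The markers came from separate lists. Some genes of the lists are counted but not reported here.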

Additional observations from a re-analysis of the deposited data

How the results depend on the processing

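TRIB2, chosen for its rise, had log2 fold changes from 1.59 to 2.07 over the 11 alternatives, given as a description. TRIB1, at -0.09, lay between -0.17 and 0.00. With a library left out, the remaining library of that genotype was assumed to vary like the others. TRIB2 then ran from 1.59 to 2.07, RFWD2 from 0.30 to 0.56 and CEBPA from -0.45 to 0.17, and leaving out 1 or the other WT library gave both extremes.

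The count of changed genes, 2748, was 1764 with DESeq2 and ran from 1617 to 2599 with a library left out, lowest without KO replicate 1. Called genes in the lists, 20, were 13 with DESeq2 and 14 to 17 with a library left out. Of the 20 calls, 10 held in all 11 alternatives. Some list genes not called in the main fit were called in an alternative, and not all of these are named. The causes were not tested. Lower calls were 58.0% with TMM and 35.8% with library size alone, which called 2078 genes higher against 1154. TRIB2's share of Tribbles counts was 16.7 points higher in KO, 12.7 points per kilobase, which follows from the lengths, and 15.1 to 18.3 with a library left out.

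The replicate numbers were used only as names of the libraries. Same-numbered libraries correlated at 0.0596 in their deviations from the genotype means. With so few libraries this value cannot show whether same-numbered libraries shared a batch. With the replicate number as a block TRIB2 was at 1.83, TRIB1 at -0.08, RFWD2 at 0.43 and CEBPA at -0.16, with 3222 changed genes and 24 called in the lists. The 38 and 39 WT counts limit the precision of the TRIB2 value.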
